A study of Mus musculus with 4 samples.

Results

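Transcript levels of 10 genes of leukaemia inhibitory factor (LIF) signalling were followed in mouse embryonic stem (ES) cells and in cells derived from them by removing LIF. The genes were chosen by name, and all 10 were found among the 47633 genes of the deposited table and passed the filter of at least 1 FPKM in at least 1 library, which 15676 genes passed. They encode the receptor chains Lifr and Il6st, the kinase Jak1 and the transcription factor Stat3, the SOCS-family genes Socs3, Socs2 and Cish, and the further STAT3 targets Bcl3, Pim1 and Pim3. FPKM (fragments per kilobase of gene model, scaled to the size of the library) is a level per length, so levels of different genes can be set side by side.

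LIF binds the LIF receptor, which pairs with gp130, the product of Il6st. JAK kinases bound to the receptor chains then phosphorylate STAT3, which enters the nucleus and activates its target genes. In mouse ES cells this pathway sustains self-renewal. Several targets, Socs3 first among them, encode inhibitors that act back on the receptor complex.

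The 4 libraries were made from total RNA of cells of the 129S2/SvPas strain. One library came from cells kept for 2 days without LIF (LIF withdrawal), and one, labelled embryoid body, from cells kept for 5 days without LIF. The reference was a pair of ES libraries, ES 1 and ES 2, from cells grown with mouse LIF on growth-arrested C57/BL6 embryonic fibroblasts (feeders). No genotype or transgene is given. The labels do not say whether the derived cultures still held feeders, and nothing in them marks ES 1 and ES 2 as separate cultures, so p-values rest on a spread that may be technical. Neither derived library had a replicate.

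The estimated depth was 18100000 fragments for LIF withdrawal, 26400000 for the library labelled embryoid body and 31500000 and 26400000 for ES 1 and ES 2. The LIF withdrawal library stood apart, in that its 10 highest genes held 44.7% of the summed FPKM, against 17.4% in the library labelled embryoid body and 15.5% and 9.80% in ES 1 and ES 2. Pluripotent cell markers were present in all 4 libraries, with 8 of 8 detected. After LIF withdrawal 3 of the 8 were above both ES libraries and 4 below both, with Esrrb at 72.7% of the ES mean. In the library labelled embryoid body 5 were above both and 3 below both, with Tdgf1 at 66.6%. The summed level of the 8 was 2343 FPKM after LIF withdrawal, 2698 FPKM in the library labelled embryoid body and 2154 and 2158 FPKM in ES 1 and ES 2. Dppa5a was at 805, 1136, 561 and 577 FPKM in the same order. Its rise alone exceeded that of the sum, so the other markers together did not rise. Mesoderm markers summed to 8.77, 5.07, 5.01 and 4.67 FPKM over 8 genes in the same order, with Mesp1 at 0 in the library labelled embryoid body. Among them Eomes rose after LIF withdrawal, to 3.72 FPKM, against 1.31 and 1.32 FPKM in ES 1 and ES 2 (limma adjusted p = 0.0285), and the neural marker Map2 fell, to 3.21 FPKM, against 10.99 and 11.6 FPKM (limma adjusted p = 0.0400). Above both ES libraries were 5 of the 8 mesoderm markers, and 1 was below both, T at 0.558 FPKM, against 1.00 and 1.14 FPKM. Of 7 neural markers 1 was above both and 5 were below. Summed endoderm markers were at 21.9 FPKM in the library labelled embryoid body, against 25.6 and 24.9 FPKM in ES 1 and ES 2, and neural markers at 27.5 FPKM, against 31.5 and 30.8 FPKM. Single germ layer markers were higher in that library, such as Tubb3 at 17.1 FPKM, against 10.6 and 9.79 FPKM in ES 1 and ES 2. Fgf8 was at 1.10 FPKM, against 0.353 and 0.124 FPKM, but it passed the filter only through that library. Limma called 0 of the germ layer markers there (0.396% of all tested genes). Others were lower, such as T at 0.127 FPKM, against 1.00 and 1.14 FPKM, and Nes at 2.11 FPKM, against 7.11 and 6.92 FPKM. Above both ES libraries were 2 of 8 endoderm, 3 of 8 mesoderm and 2 of 7 neural markers, and 4 of each list were below both. The marker sums therefore do not bear out the name embryoid body, and the sample is called the library labelled embryoid body throughout. Fibroblast markers were above both ES libraries for 17 of 18 genes after LIF withdrawal and for 9 of 18 in the library labelled embryoid body. Their summed level was 608 FPKM after LIF withdrawal, 392 FPKM in the library labelled embryoid body and 406 and 404 FPKM in ES 1 and ES 2, and Lum was at 0 in ES 2 alone. Fibroblasts also use gp130 cytokines. The part of these cells in the results below was not tested, and in bulk RNA fewer cells of a type cannot be told apart from less RNA per cell.

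In ES cells the receptor, STAT3 and 2 of the SOCS genes were the most abundant of the 10. The mean ± SD of the ES pair (n = 2) was 74.9 ± 0.711 FPKM for Lifr, 66.9 ± 10.96 for Stat3, 60.5 ± 1.14 for Socs3 and 54.98 ± 1.53 for Socs2. Pim3 followed at 38.5 ± 0.0834 FPKM, then Il6st at 33.9 ± 0.177 and Pim1 at 23.1 ± 0.506. Bcl3 and Jak1 were both close to 15 FPKM (14.98 ± 1.17 and 14.96 ± 0.347), and Cish was lowest at 2.88 ± 0.157 FPKM. Values of the ES pair overlapped between the neighbours Lifr and Stat3, Stat3 and Socs3, and Bcl3 and Jak1, so their order cannot be told, whereas the 6 other neighbouring pairs did not overlap. Stat3 was the member on which the ES libraries differed most, by 1.26-fold, against 1.003 to 1.12-fold for the others. The precision of counting was lowest for Cish, whose level after LIF withdrawal corresponds to about 31 fragments per kilobase of transcript (exact 95% Poisson interval 21.1 to 44.0), and every other member had at least 153 fragments per kilobase in each library. Those intervals cover counting error only.

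**Figure D1:**
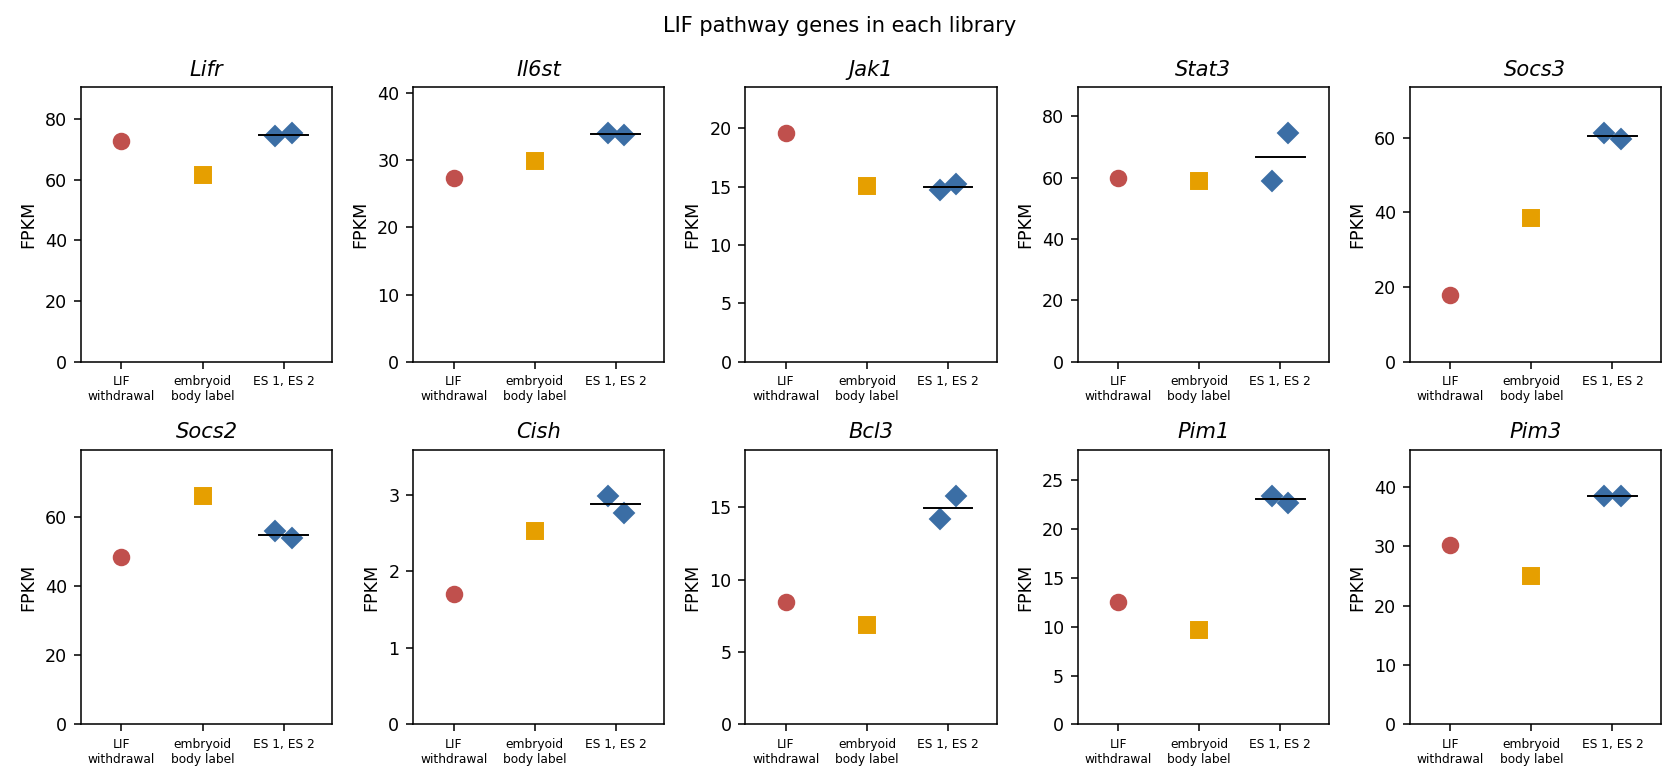
Level in FPKM (vertical axes, from 0) of the 10 LIF pathway genes in the libraries of LIF withdrawal (circle), labelled embryoid body (square) and ES 1 and ES 2 (diamonds, with their mean as a line). Socs3 was at 17.8 FPKM after LIF withdrawal, against 61.3 and 59.7 FPKM in the ES libraries, whereas Lifr was within 3 FPKM of the ES libraries there.

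After 2 days without LIF, Socs3 fell to 29.4% of its ES level. Of the receptor genes Lifr was at 97.2% and Il6st at 80.4% of the ES mean, and Stat3 lay between its 2 ES values. Pim1, Bcl3 and Cish were at 54.3%, 56.5% and 59.2% of the ES mean and did not reach the 2-fold threshold. Jak1 was the 1 member above both ES libraries. The comparison asks how the pathway's own genes respond when the ligand is taken away.

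The receptor genes showed small differences. Lifr, the LIF-binding chain (chromosome 15, 7090614 to 7197489, plus strand, in mm10), was at 72.9 FPKM after LIF withdrawal and at 74.4 and 75.4 FPKM in ES 1 and ES 2 (log2 change -0.04, SE 0.02, limma adjusted p = 0.365). Il6st (chromosome 13, 112464070 to 112510086, plus strand) encodes gp130, which carries the signal for the whole cytokine family. It was at 27.3 FPKM, against 34.0 and 33.8 FPKM in the ES libraries (-0.30, SE 0.02, limma adjusted p = 0.0644). Il6st thus lay below both ES values by far more than they differed from each other, at 80.4% of their mean. Neither was called.

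Jak1 (chromosome 4, 101152367 to 101265282, minus strand) encodes the kinase most needed for gp130 signalling. It was at 19.6 FPKM after LIF withdrawal, against 14.7 and 15.2 FPKM in ES 1 and ES 2. This was 131% of the ES mean (log2 change 0.37, SE 0.04, limma adjusted p = 0.0854), above both ES libraries but not called. Stat3 (chromosome 11, 100885098 to 100939540, minus strand) was at 59.9 FPKM, between the ES values of 59.1 and 74.6 FPKM (-0.15, SE 0.22, limma adjusted p = 0.670). Because the ES pair itself was so far apart for Stat3, a difference of this size was not detectable, and the log2 change was -0.31 without ES 1 and 0.02 without ES 2.

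Among the SOCS genes, the difference was largest for Socs3. Its product binds gp130 and the JAK kinases and shuts down the receptor complex. The gene (ENSMUSG00000053113.3) lies on chromosome 11, 117966079 to 117970047, minus strand, outside every annotated gene body on the opposite strand. Socs3 was at 17.8 FPKM after LIF withdrawal and at 61.3 and 59.7 FPKM in ES 1 and ES 2, 29.4% of the ES mean. The log2 change of -1.71 (SE 0.03) passed the test (limma adjusted p = 0.0134), and only 0.746% of the tested genes had a lower value. Its place in the order of the 10 members was 7 after LIF withdrawal, against 2 in ES 1 and 3 in ES 2.

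STAT proteins bind palindromic sites of the form TTCNNNGAA, and the RefSeq promoter windows (GRCm38.p6, 250 bases before to 50 after an annotated gene start) were searched for this form and for the form with 1 more unspecified base between TTC and GAA. Both forms are palindromic, so a match on one strand is a match on the other. Of the 9 members in that table, Socs3 and Cish held TTCNNNGAA, and 0 held the longer form. Over all 32851 windows the shares were 8.30% and 6.95%. Lifr, Il6st, Jak1, Stat3, Bcl3, Pim1 and Pim3 had no match, which says only that these letters are not in the windows used. Socs2 is not in the table. The Socs3 stretch is shown because Socs3 is the member that fell, and the Cish stretch because its window holds 2 matches, as do 0.457% of all windows. Capitals mark the matches, which are descriptions and not known sites of binding in these cells.
Socs3, chr11:117969452-117969616, minus strand: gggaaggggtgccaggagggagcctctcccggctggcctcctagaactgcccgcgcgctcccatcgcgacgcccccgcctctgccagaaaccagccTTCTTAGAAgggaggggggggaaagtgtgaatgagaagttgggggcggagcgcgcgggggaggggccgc
Cish, chr9:107296659-107296678, plus strand: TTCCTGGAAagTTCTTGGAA
The Socs3 match begins 154 bases before the start used by RefSeq and lies inside the GENCODE gene given above, in none of its annotated exons. The Cish matches begin at bases 1 and 12 after the RefSeq start and lie inside an annotated exon.

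Both other SOCS genes were closer to their ES levels. Socs2 (chromosome 10, 95385362 to 95417180, minus strand), known best as an inhibitor of growth hormone signalling, was at 48.5 FPKM after LIF withdrawal, against 56.1 and 53.9 FPKM in ES 1 and ES 2 (log2 change -0.18, SE 0.04, limma adjusted p = 0.149). Cish (chromosome 9, 107296026 to 107302784, plus strand), an inhibitor of STAT5 signalling, was at 1.70 FPKM, against 2.99 and 2.77 FPKM in the ES libraries (-0.52, SE 0.07, limma adjusted p = 0.0972). Cish rested on about 31 fragments per kilobase after LIF withdrawal, against 94 and 73 in the deeper ES libraries, so counting error weighs most on this gene. An antisense gene across Cish, Gm17041, was listed at 1.32 FPKM after LIF withdrawal and at 0 in both ES libraries. Genes on the opposite strand cover 11.5% of the exon length of Cish, and the labels do not say whether counting used strand, so its level is uncertain.

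The further STAT3 targets were all below both ES libraries. Pim1 (chromosome 17, 29490753 to 29496112, plus strand) encodes a serine and threonine kinase that promotes survival. It was at 12.5 FPKM after LIF withdrawal and at 23.4 and 22.7 FPKM in ES 1 and ES 2. Its log2 change of -0.83 (SE 0.04) had a limma adjusted p of 0.0445 but was under the 2-fold threshold, and with median-of-ratios scaling the adjusted p was 0.0512. Pim3 (chromosome 15, 88862186 to 88865726, plus strand), a kinase of the same family, was at 30.2 FPKM, against 38.4 and 38.5 FPKM in the ES libraries (-0.34, SE 0.02, limma adjusted p = 0.0572). Bcl3 (chromosome 7, 19808462 to 19822770, minus strand), a nuclear partner of NF-kB subunits, was at 8.47 FPKM, against 14.2 and 15.8 FPKM (-0.75, SE 0.10, limma adjusted p = 0.0988). The order of these 3 genes by percent of the ES mean was thus Pim1, Bcl3 and Pim3, the last at 78.6%. Antisense genes cover 14.5% of the exon length of Pim1 and 6.51% of that of Bcl3. The one across Pim1, Gm26885, was listed at 1.00 FPKM after LIF withdrawal, against 0.0806 and 0.0948 FPKM in ES 1 and ES 2, so the Pim1 level is uncertain too.

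Counted over the 10 members, limma called 1 lower (Socs3) and 0 higher after LIF withdrawal, with 7 at unadjusted p under 0.05. Of all tested genes 7.67% were called (0.357% lower and 7.32% higher), and 37.2% were at unadjusted p under 0.05. At least 2-fold from both ES libraries was likewise Socs3 alone, against 16.9% of all genes (4.09% in the lower direction). Below both ES libraries were 8 of 10 members, against 36.6% of all genes, and above both was 1 of 10, against 48.4%. The median log2 change was -0.32 over the members and 0.04 over all tested genes. Only ES 1 and ES 2 gave this test its spread (1 residual degree of freedom), and each derived library is taken to vary like them. Among strand-clear genes (protein-coding or long non-coding, with at least 1000 nt of exons and no gene body on the opposite strand), which include 5 of the members, limma gave adjusted p = 0.0119 for Socs3, 0.0375 for Pim3 and 0.0433 for Il6st, and the last 2 remained under the 2-fold threshold. Of these strand-clear genes 3.04% were called, and 9.28% were lower with an adjusted p under 0.05 at any size.

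**Figure D2:**
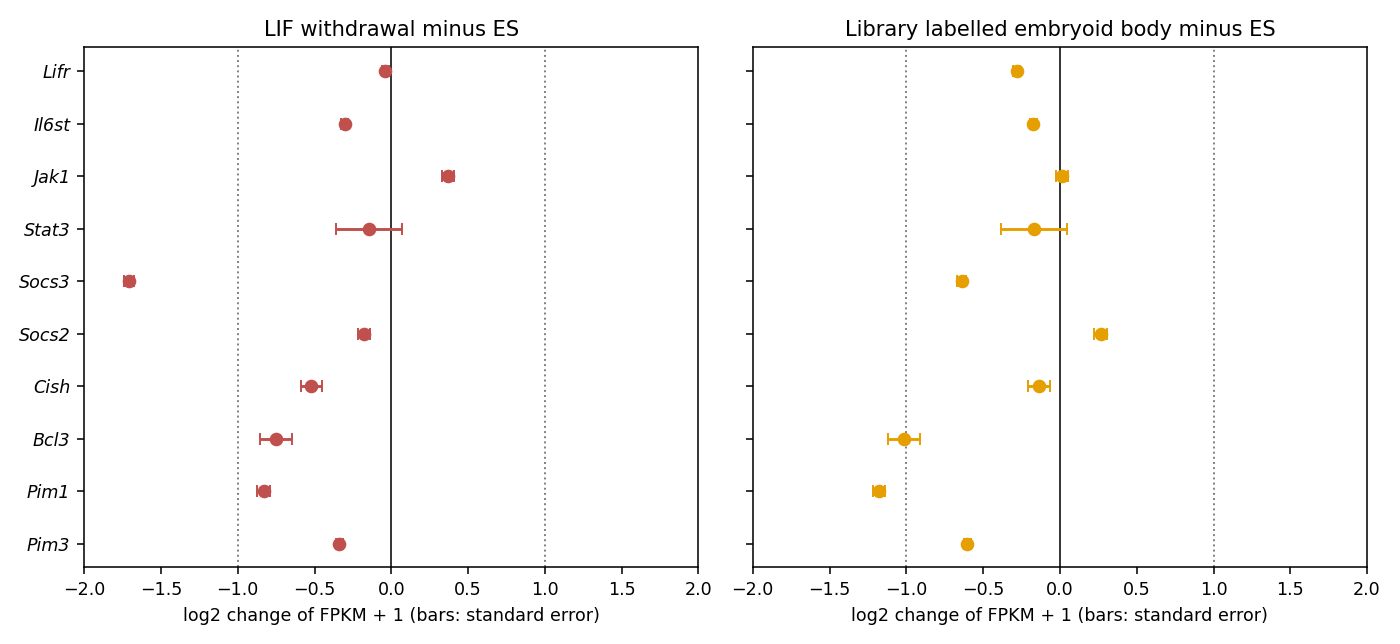
Log2 change of FPKM + 1 (horizontal axes) of the 10 members against ES cells, for LIF withdrawal (left) and the library labelled embryoid body (right), with the standard error from limma as bars and dotted lines at a 2-fold change. Socs3 lies farthest to the left after LIF withdrawal (-1.71), and Pim1 (-1.18) and Bcl3 (-1.02) lie farthest to the left in the library labelled embryoid body.

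In the library labelled embryoid body Pim1 and Bcl3 were at 41.8% and 46.0% of their ES levels, Pim3 and Socs3 were at 64.997% and 63.5%, and Socs2 was above both ES libraries. Limma called 0 of the 10, so these are values and sizes. The comparison asks where the same genes stood after 5 days without LIF.

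Pim1 was at 9.65 FPKM in the library labelled embryoid body and at 23.4 and 22.7 FPKM in ES 1 and ES 2, 41.8% of the ES mean (log2 change -1.18, SE 0.04, limma adjusted p = 0.139). Bcl3 was at 6.89 FPKM, against 14.2 and 15.8 FPKM, 46.0% of the ES mean (-1.02, SE 0.10, limma adjusted p = 0.139). Both were more than 2-fold below each ES library. Only 1.05% and 1.37% of the tested genes had lower log2 changes than Pim1 and Bcl3. Gm26885, the antisense gene across Pim1, was listed at 0 in this library. Pim3 was at 24.996 FPKM, against 38.4 and 38.5 FPKM in the ES libraries (-0.60, SE 0.02, limma adjusted p = 0.139, and 0.0294 among strand-clear genes).

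Socs3 was at 38.4 FPKM in the library labelled embryoid body, against 61.3 and 59.7 FPKM in ES 1 and ES 2 (log2 change -0.64, SE 0.03, limma adjusted p = 0.139, and 0.0294 among strand-clear genes). Socs2 was at 66.3 FPKM, above the ES values of 56.1 and 53.9 FPKM (0.27, SE 0.04, limma adjusted p = 0.156), and was the most abundant of the 10 members in this library. Cish was at 2.53 FPKM, just below the ES values of 2.99 and 2.77 FPKM (-0.14, SE 0.07, limma adjusted p = 0.366). The SOCS genes therefore lay on both sides of the ES levels here.

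Lifr was at 61.4 FPKM in the library labelled embryoid body, against 74.4 and 75.4 FPKM in ES 1 and ES 2 (log2 change -0.28, SE 0.02, limma adjusted p = 0.139). Il6st was at 29.9 FPKM, against 34.0 and 33.8 FPKM (-0.17, SE 0.02, limma adjusted p = 0.148). Both receptor chains were below each ES library, at 81.97% and 88.3% of the ES mean. Jak1 was at 15.1 FPKM, between the ES values of 14.7 and 15.2 FPKM, and Stat3 was at 58.99 FPKM, next to the lower ES value of 59.1 FPKM and apart from the higher one of 74.6 FPKM. No difference was detectable for either (limma adjusted p = 0.870 and 0.675).

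Counted over the 10 members, limma called 0 in the library labelled embryoid body, with 7 at unadjusted p under 0.05. Of all tested genes 0.396% were called, all of them higher, and 27.7% were at unadjusted p under 0.05. Since 0 of all tested genes were called lower, the lack of calls says nothing particular of the members below the ES libraries. Pim1 and Bcl3 were the 2 members at least 2-fold from both ES libraries, which 12.5% of all genes were (4.05% below and 8.45% above). With 1 added to each FPKM value, 1 member passed that rule. Below both ES libraries were 8 of 10 members, against 42.9% of all genes, and above both was 1, against 37.6%. The median log2 change was -0.23 over the members and -0.01 over all tested genes. Among the strand-clear genes limma called 0 of the 5 members, against 2.31% of all, and 2 of the 5, Pim3 and Socs3, had an adjusted p under 0.05 at any size, against 14.3% of all (7.77% lower). Both comparisons use the same ES libraries, so they are not independent of each other. Below both ES libraries in both derived libraries were 7 members, which are Lifr, Il6st, Socs3, Cish, Bcl3, Pim1 and Pim3, against 21.2% of all genes.

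The derived libraries also differed from each other, with 1 library each and hence no test. Socs3 was at 38.4 FPKM in the library labelled embryoid body and at 17.8 FPKM after LIF withdrawal, a ratio of 2.16, the largest among the 10. Cish (ratio 1.48), Socs2 (1.37) and Il6st (1.10) were also higher in the library labelled embryoid body. Pim1 and Jak1 had the lowest ratios, both 0.770, followed by Bcl3 (0.814), Pim3 (0.827) and Lifr (0.843). Stat3, at 0.985, was nearly the same in both. All 3 SOCS genes were thus higher and all 3 further STAT3 targets lower in the library labelled embryoid body than after LIF withdrawal. Fibroblast markers were at a summed 392 and 608 FPKM in these libraries, with 9 and 17 of 18 above both ES libraries. The part of fibroblasts in these ratios was not tested.

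The ligands that use gp130 were at low levels, and most of those tested stood above their ES levels in the derived cells. Of 8 ligand genes 6 were tested, limma called 0 in either comparison, and 4 had an unadjusted p under 0.05 after LIF withdrawal, against 5 in the other comparison. Over all tested genes these shares were 7.67% and 0.396% for calls and 37.2% and 27.7% for unadjusted p. After LIF withdrawal 5 of the 6 were above both ES libraries, and in the library labelled embryoid body all 6 were (48.4% and 37.6% of all genes). The median log2 changes were 0.55 and 0.64. Il6, Il11, Clcf1 and Cntf were under 1 FPKM in both ES libraries and passed the filter only through a derived library. Standing above the ES pair in at least 1 derived library was thus fixed for them, so these counts and medians are no evidence of a rise. Lif and Ctf1 passed in the ES libraries as well. Lif was above both ES libraries in each derived library, and Ctf1 only in the library labelled embryoid body. Il11, a cytokine that pairs its own receptor with gp130, was at 1.31 FPKM after LIF withdrawal, at 2.95 FPKM in the library labelled embryoid body and at 0.394 and 0.383 FPKM in ES 1 and ES 2. Il6, the founding member of the family, was at 1.37, 0.949, 0.367 and 0.354 FPKM in the same order. It reached 1 FPKM only after LIF withdrawal, so no test of Il6 is given for that library. Clcf1 was at 1.00 FPKM after LIF withdrawal, against 0.421 and 0.298 FPKM in the ES libraries. Cntf, ciliary neurotrophic factor, was at 2.34 FPKM in the library labelled embryoid body, against 0.898 and 0.688 FPKM.

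Lif itself, looked at after its values were seen, was at 4.38 FPKM after LIF withdrawal, 4.08 FPKM in the library labelled embryoid body and 2.66 and 2.76 FPKM in ES 1 and ES 2. Both derived values were above both ES values, with limma adjusted p = 0.0824 and 0.145, so neither was called. Fibroblasts are a known source of LIF, and their markers are given above, but their part in these Lif levels was not tested.

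Among 6 other receptor chains, 4 of them tested, Cntfr was lower by size in both derived libraries. It encodes the chain that binds ciliary neurotrophic factor and was at 1.44 FPKM after LIF withdrawal, 0.906 FPKM in the library labelled embryoid body and 3.78 and 3.81 FPKM in ES 1 and ES 2. Its log2 changes were -0.97 and -1.33 (limma adjusted p = 0.0389 and 0.136). Limma called 0 of the 4, with 2 and 3 at unadjusted p under 0.05. Of all tested genes 7.67% and 0.396% were called, and 37.2% and 27.7% had an unadjusted p under 0.05. At least 2-fold below both ES libraries were 4.09% and 4.05% of all tested genes. In the library labelled embryoid body Il11ra1 was at 2.96 FPKM, above the 1.58 and 1.81 FPKM of ES 1 and ES 2. Il6ra, which did not pass the filter, was at 0.425 FPKM there, against 0.323 and 0.235 FPKM. The ligands Cntf, Il11 and Il6 passed the filter only through a derived library, so receptors are not set against them here.

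In the rest of the signalling chain no gene passed the test with a 2-fold change. Of 8 other JAK and STAT genes tested, 12 other inhibitors and 10 genes of the ERK and PI3K branches, limma called 0 in each list and comparison, and 0 were 2-fold from both ES libraries. Over all tested genes 7.67% and 0.396% were called in the 2 comparisons, and 16.9% and 12.5% were 2-fold from both ES libraries. At unadjusted p under 0.05 stood 2, 3 and 6 genes of these lists after LIF withdrawal, where 37.2% of all genes did, and 0, 4 and 4 in the library labelled embryoid body, where 27.7% did. The genes farthest above ES cells after LIF withdrawal, picked out after their values were seen, were Jak2, a JAK-family kinase, and Akt1, a kinase of the PI3K branch. Jak2 was at 2.12 FPKM after LIF withdrawal and 1.15 and 1.14 FPKM in ES 1 and ES 2 (limma adjusted p = 0.0452), and Akt1 at 33.4 FPKM, against 22.3 and 22.4 FPKM (limma adjusted p = 0.0408), both under the 2-fold threshold. In the library labelled embryoid body they were at 94.4% and 70.9% of the ES mean. Among the most abundant were Tyk2, a JAK-family kinase, at 8.27 FPKM after LIF withdrawal, 8.42 FPKM in the library labelled embryoid body and 8.41 and 7.81 FPKM in ES 1 and ES 2, and Stat6, the transcription factor of interleukin-4 signalling, at 8.55, 8.88, 7.52 and 7.27 FPKM in the same order. Pias2, an inhibitor of activated STAT proteins, was at 77.0, 83.5, 75.8 and 77.3 FPKM, and Ptpn2, a phosphatase of JAK and STAT proteins, at 43.0, 34.2, 36.4 and 38.6 FPKM. Grb2, the adaptor that leads to ERK, was at 166, 120, 131 and 129.7 FPKM.

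Other genes described as STAT3 targets moved in both directions. Of 24 such genes 22 were tested. After LIF withdrawal limma called 1 higher and 1 lower, with 13 at unadjusted p under 0.05 and a median log2 change of -0.07. Of all tested genes 7.32% were called higher, 0.357% lower, and 37.2% had an unadjusted p under 0.05. The lower one was Fos, a subunit of the AP-1 factor, at 1.52 FPKM after LIF withdrawal and 17.1 and 15.8 FPKM in ES 1 and ES 2 (limma adjusted p = 0.0249), and the higher one was Ier3, an early response gene, at 11.5 FPKM, against 5.21 and 5.01 FPKM (limma adjusted p = 0.0478). Cebpd and Cebpb, C/EBP transcription factors, were at 3.14 and 3.57 FPKM after LIF withdrawal. Cebpd was at 0.706 and 0.828 FPKM in the ES libraries and passed the filter only through the derived libraries. Standing above the ES pair in at least 1 of them was thus fixed for Cebpd, and no test of it is given. Cebpb was at 1.47 and 0.379 FPKM in ES 1 and ES 2, so that its ES values were themselves far apart (limma adjusted p = 0.265).

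In the library labelled embryoid body limma called 0 of these 22 (0.396% of all genes), with 12 at unadjusted p under 0.05 (27.7% of all genes) and a median log2 change of -0.03. Ier3 was at 16.1 FPKM there, Fos at 7.31 FPKM and Bcl6, a transcriptional repressor, at 1.98 FPKM. Against the ES values given above, Ier3 and Fos were at least 2-fold from each ES library, as were 12.5% of all tested genes. Bcl6 was so too, against 0.843 and 0.815 FPKM in ES 1 and ES 2. It passed the filter only through the derived libraries, so standing above the ES pair in at least 1 of them was fixed. Above both ES libraries in each comparison were 8 of the 22, and 11 were below both. The 8 include Bcl6 and Cebpd, so they are no evidence of a rise for these genes. Of all tested genes 48.4% were above and 36.6% below after LIF withdrawal, and 37.6% and 42.9% in the library labelled embryoid body.

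**Figure D3:**
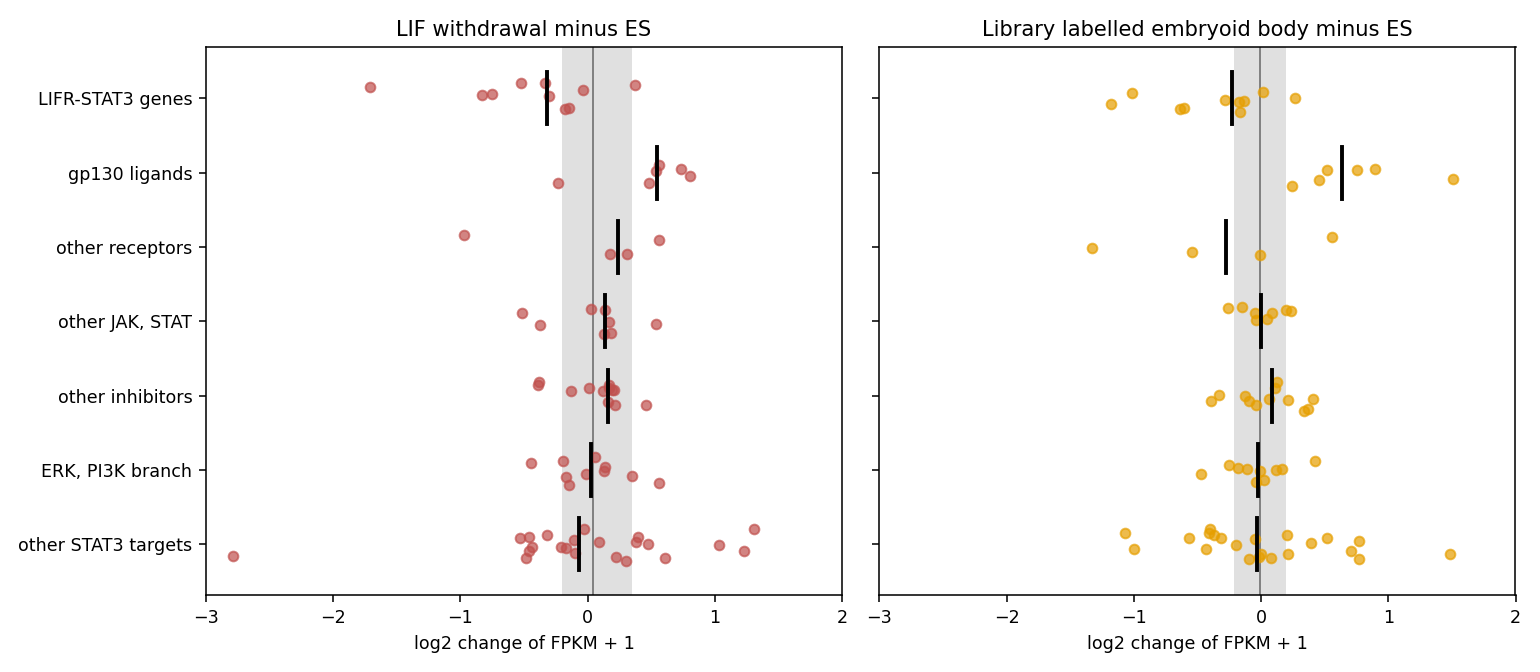
Log2 change of FPKM + 1 (horizontal axes) of each tested gene of the 10 members and of 6 other lists of the pathway, for LIF withdrawal (left) and the library labelled embryoid body (right). Short black lines are list medians, and the grey band and line are the middle 50% and the median of all 15676 tested genes. The medians of the members (-0.32 and -0.23) lie left of the band, and those of the ligands (0.55 and 0.64) right of it. The ligands Il6, Il11, Clcf1 and Cntf passed the filter only through a derived library, so the ligand medians are no evidence of a rise.

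The genes whose pattern over the 4 libraries was nearest to that of Socs3 were sought among 4794 protein-coding genes without a gene body on the opposite strand and with at least 5 FPKM in some library. Likeness was the Euclidean distance between log2(FPKM + 1) values, each less the mean of the ES pair. The nearest 5 were Phpt1 (distance 0.311), which encodes a phosphohistidine phosphatase, Id2 (0.350), which encodes a partner that blocks DNA binding of helix-loop-helix factors, Frem2 (0.450), an extracellular matrix protein, Actg1 (0.450), a cytoplasmic actin, and Fgf17 (0.531), a fibroblast growth factor. Id2 was at 18.7 FPKM after LIF withdrawal, 28.4 FPKM in the library labelled embryoid body and 54.1 and 54.5 FPKM in ES 1 and ES 2. Id2 and Fgf17 were called lower after LIF withdrawal (limma adjusted p = 0.00953 and 0.0402), whereas Phpt1, Frem2 and Actg1 were not (0.0909, 0.0607 and 0.0680). Adjusted over the strand-clear genes, those 3 had limma adjusted p = 0.0241, 0.0198 and 0.0208 and log2 changes of -1.49, -1.33 and -1.27, past both thresholds. Pim1 and Bcl3 have a gene body on the opposite strand and so could not be among the 5. Pim3 could have been and was not. A like pattern over 4 libraries says nothing of shared control.

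**Figure D4:**
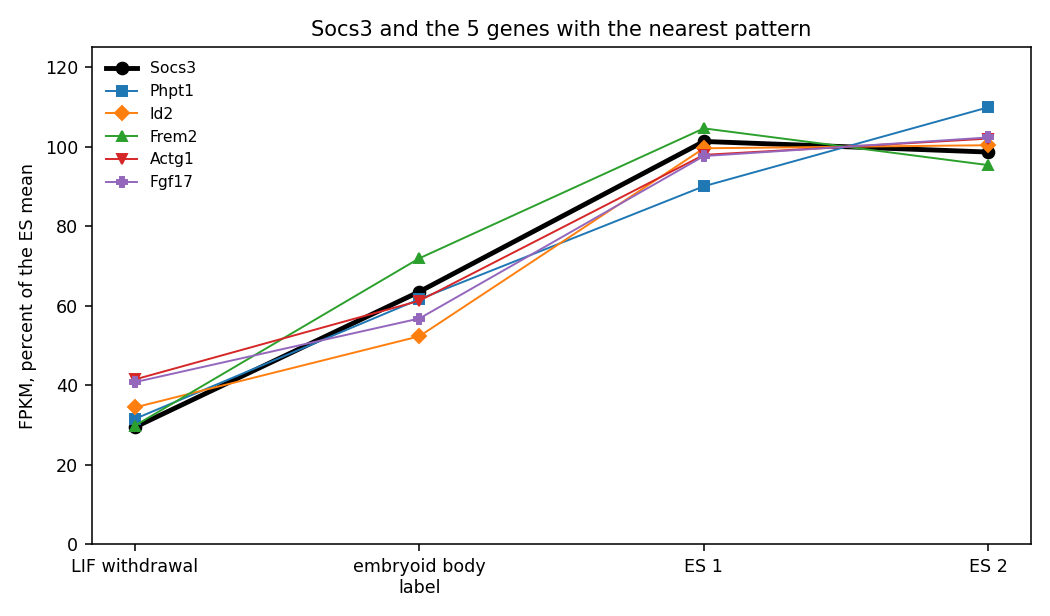
FPKM as percent of the mean of the ES pair (vertical axis, from 0) for Socs3 and the 5 genes nearest to it, in the libraries of LIF withdrawal, labelled embryoid body, ES 1 and ES 2, with lines joining the values of a gene. After LIF withdrawal Socs3 was at 29.4% and the 5 other genes lay between 29.8% and 41.5%. In the library labelled embryoid body Socs3 was at 63.5% and the others lay between 52.3% and 71.9%.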

How the data were processed

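The FPKM values of 47633 genes in 4 libraries were deposited by the authors. Per the submitters' processing notes, Trimmomatic 0.36, STAR, Cufflinks and mm10 were used, while each tool's role and options, the annotation release and whether counting used strand were not given in the sources used here. Symbols and positions came from GENCODE mouse release 21 (mm10), matched without ID version for 47219 genes. Promoter sequence came from RefSeq (GRCm38.p6).

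The test was limma 3.58.1 (R 4.3.3) with a variance trend, on log2(FPKM + 1) of the 15676 genes that reached 1 FPKM somewhere, and 1 model held all 4 libraries. Calls needed an adjusted p under 0.05 (Benjamini-Hochberg, over all tested genes) and an absolute log2 change of at least 1. This scale understates the change of low genes. Steps were tested on simulated data. Median-of-ratios factors ranged from 0.977 to 1.02, so values were not rescaled. Depth was estimated from the step that 1 fragment makes in single-transcript genes of at least 3000 nt. Values and figures were made with Python 3.11.15, pandas 2.3.3 and matplotlib 3.10.9.

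The members, lists and rules were chosen with earlier results of these data known. From each list the text names up to 4 genes per comparison that were called or at least 2-fold from both ES libraries, or else the 2 most abundant, of which 1 is not reported here.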

Additional observations from a re-analysis of the deposited data

Results flagged for a closer look

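Socs2 lay below both ES libraries after LIF withdrawal (log2 change -0.18) and above both in the library labelled embryoid body (0.27), so the derived libraries stood on opposite sides of the ES pair. This difference was not tested, since each derived library is a single sample and both are set against the same ES pair.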

How the results depend on the processing

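The call of Socs3 after LIF withdrawal held under all 5 alternatives with a test (pseudocount 0.1, no filter, median-of-ratios scaling, strand-clear genes, no trend), with limma adjusted p between 0.0119 and 0.0237, and 0 members were called in the library labelled embryoid body under any of them. Over all genes, LIF withdrawal had 1203 calls and 207 among the 6808 strand-clear genes. The library labelled embryoid body had 62 calls, and 131 with a pseudocount of 0.1, 138 without a filter, 157 among strand-clear genes and 0 by limma without a trend (4504 genes at unadjusted p under 0.05). With 1 added to FPKM, 1 member instead of 2 was 2-fold from both ES libraries in the library labelled embryoid body. Between the derived libraries, with alternatives chosen after seeing the data, the Stat3 log2 difference of -0.022 was 0.042 with median-of-ratios scaling, and members higher in the library labelled embryoid body numbered 5 instead of 4. No member's direction against ES cells changed with scaling, pseudocount, filter, gene set or trend. Leaving out an ES library leaves no residual degree of freedom, so it gives values with no test, and counts of calls could not be had. It turned the direction of 2 members that were not called: Stat3 after LIF withdrawal (-0.31 without ES 1, 0.02 without ES 2) and Jak1 in the library labelled embryoid body (-0.0083 without ES 1, 0.036 without ES 2). No paired analysis was possible because each derived group holds 1 library. Depth limits Cish most.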
